A study of Mus musculus with 68 samples.

Results

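The 8 genes described here are linked to the expulsion of the erythroblast nucleus and were followed through mouse bone marrow erythropoiesis: Diap3, Rac1, Rac2, Myh9, Myh10, Dnm2, Vim and Riok3. They were chosen by name, as actomyosin, formin, Rac and vesicle genes with known roles in enucleation, together with Vim and Riok3. The 8 are among 24059 gene symbols in each of the count tables for the 2 RNA sequencing series of the study, and all 8 are present in both tables.

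A maturing erythroblast condenses its nucleus, moves it to one side of the cell and pinches it off inside a thin rim of cytoplasm, leaving a reticulocyte. The formin mDia2 (Diap3, current symbol Diaph3) nucleates actin filaments, the Rac GTPases act upstream of it, and the nonmuscle myosin heavy chains IIA (Myh9) and IIB (Myh10) drive contraction behind the nucleus. Dynamin 2 (Dnm2) cuts vesicles from membranes, vimentin (Vim) forms the intermediate filaments that anchor nuclei in many cells and is lost during erythroid maturation, and Riok3 is an atypical kinase induced late in erythroblasts.

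Erythroid cells were enriched by flow cytometry from bone marrow, and total RNA was sequenced. The stage series held 38 libraries: 3 of BFU-E and 5 of CFU-E (the early and late committed progenitors), 7 of ERY-I (labelled proerythroblasts), 4 of ERY-II (basophilic), 4 of ERY-III (polychromatic), 4 of ERY-IV (orthochromatic), 7 of ERY-V (reticulocytes) and 4 of ERY-VI (red cells). The knockout series held 30 libraries, 3 wild type (WT) and 3 GS-KO per gate. The gates were BFU-E and CFU-E, then ERY-I-II (labelled proerythroblasts and basophilic cells), ERY-III-VI (polychromatic and orthochromatic cells) and finally ERY-V-VI (reticulocytes and red cells). GS, which the labels do not spell out, was read as glutamine synthetase, whose gene is Glul. The sources used here give no strain, age, means of deletion or cells in which it acts, and no genotype for the stage series. The labels do not say whether replicates came from separate mice, so p-values measure only how far the libraries scatter, which may be technical.

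Stage libraries held 1630863 to 11472763 counts each and knockout libraries 3131142 to 15806844. Replicates 1 to 3 of both progenitors, of ERY-I and of ERY-V held Y-linked transcripts, as did all 30 knockout libraries, whereas the other 26 stage libraries held Xist, and the first kind are called Y-positive and the second Xist-positive here. Y-positive triplicates lay far closer to each other than Xist-positive replicates did, and BFU-E had no Xist-positive library. Summed CPM (counts scaled to the library total) of 9 neutrophil markers were 13619 to 14004 in the 3 Y-positive ERY-I libraries, 2759 to 3436 in ERY-V replicates 1, 2, 3 and 5, 1260 in ERY-I replicate 5, 2100 in ERY-II replicate 2 and 1206 in ERY-III replicate 2, and at most 810 in the other stage libraries. They were 4314 to 13528 in GS-KO libraries against 25.9 to 654 in WT. Glul checked the knockout labels: it was 96.1 to 101 CPM in GS-KO against 120.0 to 125 in WT BFU-E, 34.7 to 37.5 against 84.2 to 89.7 in CFU-E. It was 12.8 to 16.6 against 104 to 113 CPM in the ERY-I-II gate, 17.0 to 22.5 against 152 to 167 in the ERY-III-VI gate, and 22.3 to 24.0 against 246 to 268 in ERY-V-VI.

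Of the 8 members, 5 have an entry in the RefSeq table of start sites (GRCm38.p6): Diap3, Dnm2, Myh9, Myh10 and Vim. The bases before the start that lie outside every GENCODE exon are shown for the 3 of them with at least 200 such bases among 250. These were 239 bases for Diap3 and all 250 for the others. Capitals mark CCAAT, or ATTGG on the other strand. The Diap3 stretch is chr14:87141236-87141474 on the minus strand, that of Dnm2 is chr9:21424658-21424907 on the plus strand and that of Myh9 is chr15:77842176-77842425 on the minus strand.
Diap3: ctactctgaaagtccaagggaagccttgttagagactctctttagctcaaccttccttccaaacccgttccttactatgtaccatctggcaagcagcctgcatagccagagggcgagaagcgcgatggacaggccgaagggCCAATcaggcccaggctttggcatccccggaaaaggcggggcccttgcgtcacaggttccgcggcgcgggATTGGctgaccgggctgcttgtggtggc
Dnm2: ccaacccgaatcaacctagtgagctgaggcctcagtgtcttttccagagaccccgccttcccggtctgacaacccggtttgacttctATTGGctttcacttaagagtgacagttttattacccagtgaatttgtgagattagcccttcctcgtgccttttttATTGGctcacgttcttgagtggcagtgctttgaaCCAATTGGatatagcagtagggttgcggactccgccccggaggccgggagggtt
Myh9: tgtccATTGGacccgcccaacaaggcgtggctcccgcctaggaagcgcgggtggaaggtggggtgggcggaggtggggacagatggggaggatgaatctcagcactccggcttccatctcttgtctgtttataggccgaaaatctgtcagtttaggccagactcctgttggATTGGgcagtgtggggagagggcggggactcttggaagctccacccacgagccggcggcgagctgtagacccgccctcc

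CCAAT occurred in the 250 base windows of all 5 genes, with 2 matches each in Diap3, Myh9 and Vim, 3 in Myh10 and 4 in Dnm2, and 33.8% of the 32851 windows in the table held it. The Vim window lay wholly within annotated exons and the Myh10 window did for 178 of its 250 bases, so their matches may lie in exons. Of 5 other motifs searched on both strands, GATAA occurred in none of the 5 windows (22.6% of all windows) and CCNCNCCC in those of Myh9, Myh10 and Vim (45.9%). GGGCGG occurred in Myh9 and Dnm2 (32.7%), TATAAA in Myh9 and Vim (12.4%) and GAGGAA in Vim and Dnm2 (23.3%). The motif in capitals was picked after these counts were seen, and matches to CCNCNCCC can overlap those to GGGCGG.

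Levels below are CPM of library totals, and fold changes are log2 values from edgeR with trimmed mean (TMM) scaling, given ± SE with p-values adjusted over all genes tested. The choice matters where globin RNA fills a library. The median log2 change of all genes tested was -0.35 with TMM but -1.68 with library totals in ERY-II against ERY-I, -0.07 and -0.63 in ERY-IV against ERY-III, 0.06 and -0.72 in ERY-V against ERY-IV, and -0.34 and -2.24 in ERY-VI against ERY-V. In those steps a fold change is relative to the other genes, and a gene can fall in CPM while its TMM fold change is above 0. In bulk RNA, fewer cells of a type and less RNA per cell cannot be told apart.

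**Figure D1:**
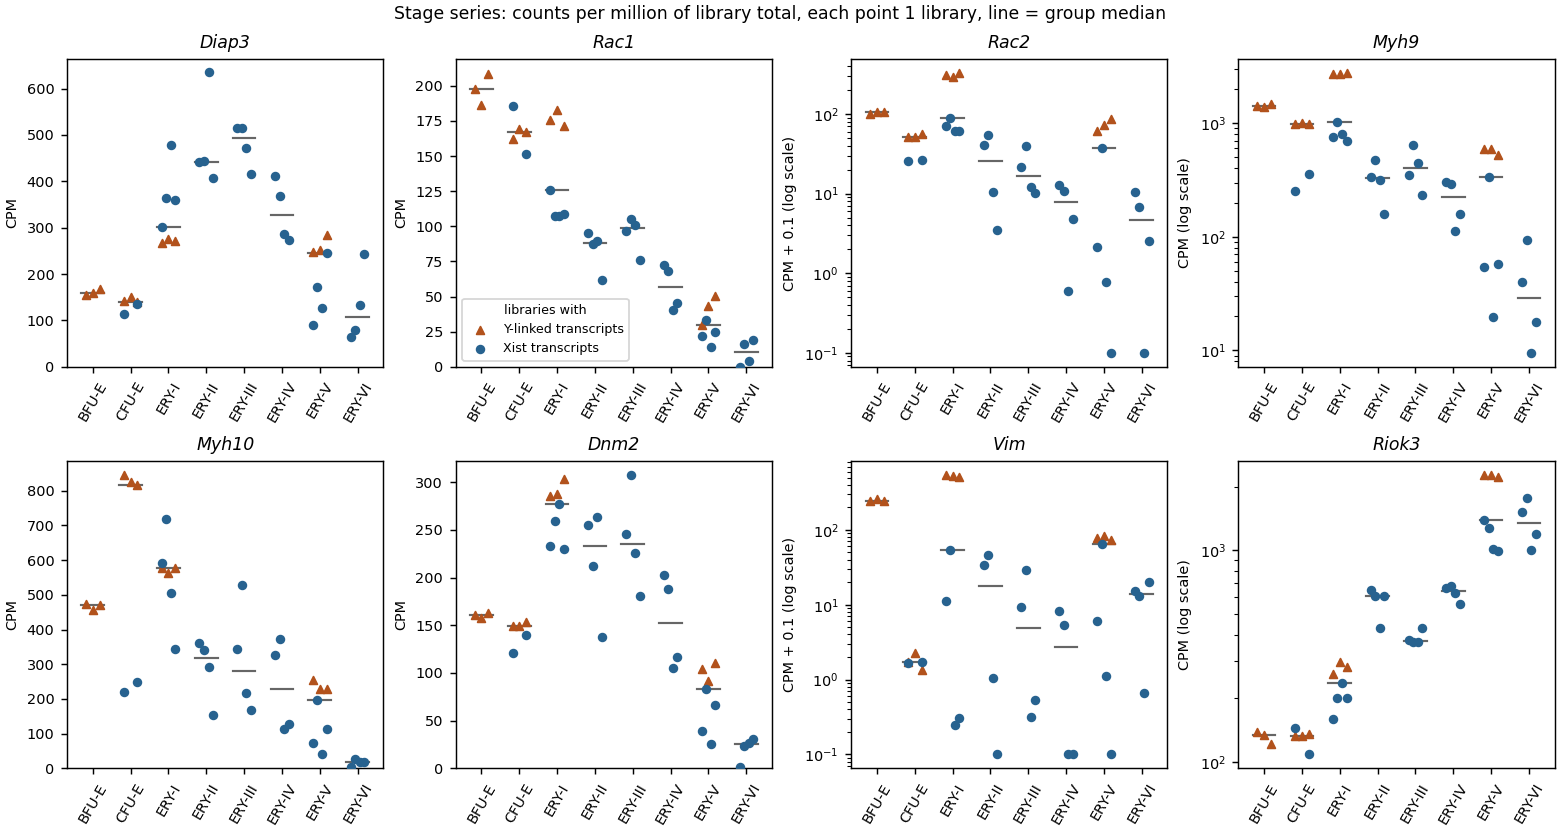
CPM of each member (vertical axes, linear or log as labelled) in the 38 stage libraries, by stage, with triangles for Y-positive and circles for Xist-positive libraries and lines at group medians. Riok3 is highest in ERY-V and ERY-VI, Diap3 in ERY-II and ERY-III, Myh9, Rac2 and Vim are high in Y-positive ERY-I libraries, and the other members fall to their lowest levels in ERY-VI.

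Across the stage series, members were called most often at the entry into the erythroblast stages. In CFU-E against BFU-E 2 of 8 members were called, both lower (37.3% of all genes tested were called, 19.1% lower), and in ERY-I against CFU-E 6 of 8 were, all higher (46.4%, 25.4% higher). In ERY-II against ERY-I 4 of 8 were called, all higher with TMM (45.3%, 20.2% higher), and in ERY-III against ERY-II none was (0.185%). Of these 4, Rac1 and Dnm2 changed sign with library totals, which called 423 of all genes tested higher and 6998 lower in ERY-II against ERY-I. The later steps called 1 of 8, higher, in ERY-IV against ERY-III (13.6%, 10.3% higher), 2, both higher, in ERY-V against ERY-IV (8.83%, 6.49% higher) and 3 in ERY-VI against ERY-V (7.83%). All these counts are from fits without a replicate block. With the replicate number as a block, 2 of 8 were called in ERY-III against ERY-II and 2 of 8 in ERY-IV against ERY-III. No share of all genes is given here for the blocked fits. The median log2 change of the 8 in ERY-I against CFU-E was 1.41, beside 0.05 over all genes tested, and in the other 6 steps it lay between -0.14 and 0.66.

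Riok3 (ENSMUSG00000024404.7) rose at 4 of the 7 stage steps with both scalings, into ERY-I, ERY-II, ERY-IV and ERY-V. It read 139, 134 and 122 CPM in BFU-E and 133, 133, 136, 145 and 109 in CFU-E. ERY-I libraries lay between 160.4 and 298 with a median of 237, and ERY-II libraries at 652, 609.5, 428 and 609. The 2 progenitor groups overlapped and every ERY-I library lay above them, as every ERY-II library lay above ERY-I.

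Riok3 stood lower in ERY-III, at 379, 369, 369 and 429 CPM, and ERY-IV at 663, 679, 632 and 556. ERY-V ran from 999 to 2281 with a median of 1391, and ERY-VI libraries read 1512, 1762, 1008 and 1198. The last 2 groups overlapped, and both lay wholly above ERY-IV. The Y-positive ERY-V libraries (2233 to 2281) were above the 4 Xist-positive ones (999 to 1391).

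The Riok3 fold change was 0.13 ± 0.11 (adjusted p = 0.380) in CFU-E against BFU-E, 1.22 ± 0.16 (0.000111) in ERY-I against CFU-E and 2.70 ± 0.23 (3.39e-05) in ERY-II against ERY-I. ERY-III against ERY-II gave -0.78 ± 0.28 (0.292). In that step same-numbered libraries deviated together, and with the number as a block the change was -0.74 ± 0.15 (0.00209). Riok3 rose again by 1.30 ± 0.26 (0.00892) in ERY-IV and by 2.26 ± 0.33 (0.00197) in ERY-V. With library totals the rises into ERY-II, ERY-IV and ERY-V were 1.29 ± 0.18, 0.71 ± 0.16 (0.0327) and 1.37 ± 0.30 (0.0153). The ERY-V rise was 2.44 ± 0.37 (0.00472) in Xist-positive libraries alone and 2.65 ± 0.33 (0.00189) without libraries of 1000 CPM or more of neutrophil markers. In ERY-VI against ERY-V it was 1.61 ± 0.31 (0.00497) with TMM but -0.27 ± 0.32 (0.460) with library totals, and 1.43 ± 0.38 (0.0972) without the libraries high in neutrophil markers.

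The WT libraries of the knockout series gave the same order: 125, 128 and 127 CPM in BFU-E, 113, 109 and 113 in CFU-E, and 232, 241 and 234 in the ERY-I-II gate. ERY-III-VI libraries read 517, 506 and 526 and ERY-V-VI libraries 1942, 1964 and 1917. Every WT gate from ERY-I-II on lay above the one before it. Riok3 rose by 1.51 ± 0.04 (adjusted p = 3.10e-31), 1.84 ± 0.03 (8.81e-32) and 3.07 ± 0.03 (6.07e-17) at the 3 erythroblast and reticulocyte steps. Their rises with library totals were 1.08, 1.13 and 1.91.

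Diap3 (ENSMUSG00000022021.14, chr14:86655367-87141235, minus strand) peaked in the middle of the series. It read 155, 159 and 167 CPM in BFU-E, 142, 151, 141, 113 and 135 in CFU-E, and 266 to 478 with a median of 300.4 in ERY-I. ERY-II libraries read 441, 443, 635 and 407, and ERY-III libraries 515, 515, 472 and 415. These 2 groups overlapped and held the highest medians. It then fell in CPM through ERY-IV (412, 369, 286 and 272), ERY-V (89.1 to 285, median 245) and ERY-VI (65.4, 80.4, 134 and 242).

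Diap3 rose by 1.72 ± 0.25 (adjusted p = 0.000202) in ERY-I against CFU-E and by 1.88 ± 0.29 (0.000455) in ERY-II against ERY-I, the latter being 0.54 ± 0.19 (0.0224) with library totals. Within Y-positive libraries the first rise was 1.03 ± 0.04 and within Xist-positive ones 2.06 ± 0.31 (0.00212). The steps to ERY-III, ERY-IV and ERY-V gave -0.21, 0.07 and 0.17 with adjusted p of 0.709, 0.838 and 0.777. ERY-VI against ERY-V gave 1.03 ± 0.31 (0.0484), which turned to -0.65 ± 0.45 (0.223) with library totals. That call was lost in 9 of 11 fits that left out 1 library, and the direction rests on the scaling. In WT, Diap3 rose by 1.55 ± 0.03 (1.18e-33) into ERY-I-II and by 1.19 ± 0.03 (4.42e-26) into ERY-III-VI (1.12 ± 0.03 and 0.47 ± 0.03 with library totals), where the libraries read 466, 442 and 434 CPM. In WT ERY-V-VI (282, 281 and 287 CPM) the change was 0.49 ± 0.05 (4.08e-06) with TMM and -0.66 ± 0.05 with library totals.

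Rac1 and Rac2 encode closely related GTPases, Rac1 in most cells and Rac2 mainly in blood cells. Rac1 (ENSMUSG00000001847.14, chr5:143503634-143528036, minus strand) was highest in BFU-E and lowest in ERY-VI in CPM, with ERY-III slightly above ERY-II. It read 198, 187 and 209 in BFU-E, 162, 169, 167, 185 and 151 in CFU-E, and 107 to 183 with a median of 126 in ERY-I. ERY-II libraries read 95.1, 87.4, 89.5 and 61.8 and ERY-III libraries 96.9, 105, 101 and 76.1, groups that overlapped. ERY-IV libraries read 72.8, 67.9, 40.4 and 45.5, ERY-V 13.8 to 50.5 (median 29.7), and ERY-VI 16.1, 4.48 and 19.0 in 3 libraries and 0 in replicate 1, where 3 counts would be 0.883 CPM.

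The Rac1 fold change passed the test at 1 stage step, ERY-II against ERY-I, with 0.63 ± 0.14 (adjusted p = 0.00400) under TMM and -0.75 ± 0.21 (0.00824) with library totals. The direction thus rests on the scaling. The other 6 steps gave between -0.18 and 0.10. In WT libraries of the knockout series it fell by 0.25 ± 0.04 (2.56e-09) in CFU-E and by 0.26 ± 0.05 (4.98e-06) in ERY-I-II (by 0.69 ± 0.05 with library totals), and in ERY-III-VI it was 0.59 ± 0.07 (9.65e-10) with TMM and -0.12 ± 0.07 (0.0833) with library totals. Rac1 exons share up to 2309 bases with exons of Daglb on the other strand, and the sources used here give no strand setting for the counting, so reads of the pair may be mixed.

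Rac2 (ENSMUSG00000033220.7, chr15:78559167-78572783, minus strand) fell and rose with the kind of library as much as with stage. It read 99.98, 107 and 107 CPM in BFU-E. CFU-E libraries read 51.4, 52.1 and 56.3 in the Y-positive set and 25.4 and 26.4 in the Xist-positive set, and ERY-I libraries 296 to 327 and 60.6 to 90.4. Rac2 was therefore 60.6 CPM or more in every ERY-I library and at most 56.3 in every CFU-E library, with the 2 sets apart in both stages.

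ERY-II libraries read 40.3, 54.7, 10.5 and 3.42 CPM, ERY-III 21.3, 39.1, 12.1 and 10.1, and ERY-IV 12.8, 10.8, 0.502 and 4.64. ERY-V ran from 0 to 86.2 with a median of 37.8: replicates 1, 2, 3 and 5 read 60.7, 72.8, 86.2 and 37.8, and the other 3 at most 2.06. ERY-VI libraries read 10.3, 6.62, 0 and 2.45, and a count of 0 allows 1.51 CPM in ERY-V replicate 7 and 1.68 in ERY-VI replicate 3. The 4 higher ERY-V libraries are those with 2759 CPM or more of neutrophil markers, and the 3 lower ones held 1.51 to 117 CPM. The part of this in the Rac2 values was not tested.

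Rac2 fell by 1.18 ± 0.24 (adjusted p = 0.00524) in CFU-E against BFU-E, and by 0.89 ± 0.07 within Y-positive libraries, but with each Y-positive triplicate summed to 1 library the adjusted p was 0.221. It rose by 2.33 ± 0.47 (0.00164) in ERY-I against CFU-E, by 2.66 ± 0.05 within Y-positive and 1.88 ± 0.21 (0.00153) within Xist-positive libraries, and by 1.19 ± 0.26 (0.00513) without the libraries high in neutrophil markers. ERY-IV against ERY-III gave -0.98 ± 0.52 (0.246), and -1.09 ± 0.33 (0.0268) with the replicate number as a block, these same-numbered libraries deviating together. ERY-V against ERY-IV gave 2.87 ± 0.99 (0.0796), and -0.72 ± 1.05 (0.698) without the libraries high in neutrophil markers. In WT it fell by 1.83 ± 0.07 (3.19e-44) in CFU-E, rose by 1.24 ± 0.09 (1.32e-16) in ERY-I-II and fell by 0.51 ± 0.11 (0.000137) in ERY-III-VI, or by 1.23 ± 0.11 with library totals. Rac2 thus fell from BFU-E to CFU-E and rose on entry into the erythroblast gates in both series.

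Myh9 (ENSMUSG00000022443.17, chr15:77760587-77842175, minus strand) and Myh10 (ENSMUSG00000020900.15, chr11:68691559-68816632, plus strand) encode the 2 heavy chains, whose balance shifted between BFU-E and CFU-E. Myh9 read 1406, 1406 and 1465 CPM in BFU-E, where Myh10 read 475, 457 and 470.1. In CFU-E Myh9 read 984, 1011 and 993 in the Y-positive set and 251 and 356 in the Xist-positive set, and Myh10 844, 824 and 817 in the first and 219.5 and 249 in the second. Both genes were thus lower in the Xist-positive CFU-E libraries, with no overlap between the sets.

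In ERY-I, Myh9 ran from 699.7 to 2769 CPM with a median of 1024, all 3 Y-positive libraries lying at 2707 or more, and Myh10 ran from 344 to 718 with a median of 576 and no gap between the sets. Myh9 then read 339, 471, 317 and 158 in ERY-II, 353, 647, 449 and 236 in ERY-III, and 304, 293, 113 and 157 in ERY-IV. Myh10 read 362, 341, 293 and 155, then 344, 528, 217 and 169, then 326, 374, 112 and 129 in the same stages. From ERY-II to ERY-IV the ranges of neighbouring stages overlapped for both genes.

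Both chains were lowest in ERY-VI. Myh9 ran from 19.5 to 595 (median 337) in ERY-V and read 40.0, 94.2, 9.52 and 17.8 in ERY-VI. Myh10 ran from 41.1 to 255 (median 198) in ERY-V and read 3.53, 27.9, 18.5 and 19.6 in ERY-VI. The Myh10 groups did not overlap, and those of Myh9 did.

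The Myh9 rise in ERY-I against CFU-E was 1.51 ± 0.45 (adjusted p = 0.0156), 1.58 ± 0.02 within Y-positive and 1.87 ± 0.25 (0.00179) within Xist-positive libraries, and 0.68 ± 0.42 (0.210) without the libraries high in neutrophil markers. The last fit sets 3 Xist-positive ERY-I libraries against CFU-E libraries of both sets. Myh9 passed the test at no other stage step. Within Y-positive libraries it fell by 0.44 ± 0.02 from BFU-E to CFU-E, where the pooled value was -0.88 ± 0.41 (0.114).

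Myh10 behaved differently in the 2 sets at the entry into ERY-I: it fell by 0.41 ± 0.03 within Y-positive libraries and rose by 1.62 ± 0.25 (adjusted p = 0.00222) within Xist-positive ones, and the pooled change was 0.30 ± 0.32 (0.4657). From BFU-E to CFU-E it rose by 0.90 ± 0.03 within Y-positive libraries, against 0.44 ± 0.44 (0.439) pooled. In ERY-VI against ERY-V it fell by 1.39 ± 0.41 (0.0473) with TMM and by 3.25 ± 0.65 (0.00189) with library totals, the former a call lost in 9 of 11 fits that left out 1 library. In WT the 2 chains moved apart from BFU-E to CFU-E, Myh10 rising by 1.03 ± 0.02 (3.02e-61) and Myh9 falling by 0.21 ± 0.02 (1.13e-15). At the next step, into WT ERY-I-II, Myh9 gave 0.48 ± 0.02 (1.03e-22) with TMM and 0.05 ± 0.02 (0.0317) with library totals, while Myh10 gave 0.28 ± 0.02 with TMM and -0.16 ± 0.02 with library totals. In WT ERY-III-VI both changed sign with the scaling, Myh9 from 0.18 to -0.54 and Myh10 from 0.38 to -0.34.

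The ratio of Myh9 to Myh10 counts within a library does not depend on the scaling. It was 3.05 ± 0.0797 (SD, n = 3) in BFU-E, 1.24 ± 0.113 (n = 5) in CFU-E, and between 0.985 and 1.43 on average in ERY-II, ERY-III and ERY-IV. In ERY-I it ran from 1.28 to 4.81 and in ERY-V from 0.475 to 2.60, with the Y-positive libraries highest. ERY-VI, with few counts, had the highest mean and the widest spread, 4.03 ± 5.03 (n = 4), from 0.515 to 11.3. Per kilobase of exon, the ratio averaged 2.47 in BFU-E and 0.894 in ERY-II. In WT libraries it fell from 2.52 ± 0.0153 in BFU-E to 1.07 ± 0.00550 in CFU-E (n = 3 each).

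**Figure D2:**
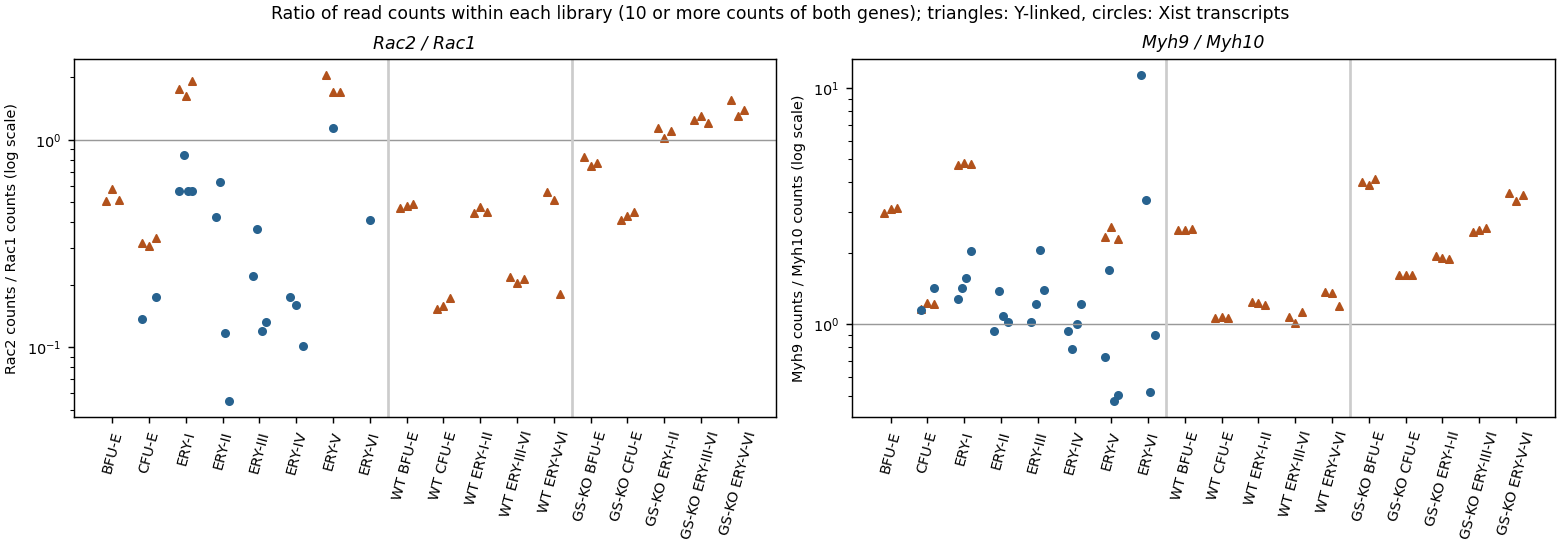
Ratio of Rac2 to Rac1 counts (left) and of Myh9 to Myh10 counts (right) within each library with 10 or more counts of both genes, on log axes, by group; triangles are Y-positive and circles Xist-positive libraries. Both ratios are higher in GS-KO than in WT libraries in each of the 5 gates, and higher in Y-positive than in Xist-positive ERY-I libraries.

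Dnm2 (ENSMUSG00000033335.17, chr9:21424908-21507759, plus strand) held a plateau in CPM from ERY-I to ERY-III. It read 160.5, 157 and 163 CPM in BFU-E, 149, 149, 153, 121 and 140.2 in CFU-E, and 230.2 to 303 with a median of 277 in ERY-I. ERY-II libraries read 255, 212, 264 and 137, ERY-III 246, 307, 225 and 180.4, and ERY-IV 203, 188, 105 and 117. In CPM it fell to 25.6 to 111 (median 83.0) in ERY-V and to 1.77, 23.7, 26.9 and 30.7 in ERY-VI, and these 2 groups overlapped.

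Dnm2 rose by 1.30 ± 0.13 (adjusted p = 2.21e-05) in ERY-I against CFU-E, by 1.08 ± 0.04 within Y-positive and 1.39 ± 0.22 (0.00238) within Xist-positive libraries. In ERY-II against ERY-I it was 1.02 ± 0.15 (0.000286) with TMM and -0.31 ± 0.17 (0.127) with library totals. With TMM the steps to ERY-III, ERY-IV, ERY-V and ERY-VI gave -0.03, -0.08, -0.21 and -0.15 (adjusted p = 0.949, 0.767, 0.643 and 0.875). The falls in CPM at those steps were therefore not called relative to the other genes. In WT, Dnm2 rose by 1.34 ± 0.04 (8.74e-30) into ERY-I-II and by 0.87 ± 0.04 (4.34e-20) into ERY-III-VI, the latter being 0.16 ± 0.04 with library totals. The last WT step, into ERY-V-VI, gave -0.13 ± 0.08 (0.283) with TMM. Dnm2 exons share up to 207 bases with those of Tmed1 on the other strand, so reads of that pair may be mixed.

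Vim (ENSMUSG00000026728.9, chr2:13573927-13582826, plus strand) was lost between BFU-E and CFU-E. It read 245, 256 and 245 CPM in BFU-E and 1.64, 2.14, 1.25, 1.54 and 1.60 in CFU-E, in libraries of both sets, and fell by 7.13 ± 0.15 (adjusted p = 3.96e-08). In WT libraries it went from 258, 266 and 244 to 1.08, 0.843 and 0.960 and fell by 7.92 ± 0.10 (3.91e-83). No other member changed as much at any stage step.

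After CFU-E, Vim split by library. The 3 Y-positive ERY-I libraries read 546, 519 and 505 CPM, and the 4 Xist-positive ones 10.99, 52.9, 0.15 and 0.204. ERY-II libraries read 34.3, 46.3, 0.937 and 0, ERY-III 9.27, 29.0, 0.216 and 0.440, ERY-IV 8.24, 5.27, 0 and 0, and ERY-VI 15.01, 12.8, 0.560 and 20.2. ERY-V replicates 1, 2, 3 and 5 read 76.7, 82.3, 72.3 and 65.1, and replicates 4, 6 and 7 read 5.96, 1.01 and 0. Counts of 0 allow 0.7895 CPM in ERY-II, 0.753 and 0.696 in the 2 ERY-IV libraries and 1.51 in ERY-V.

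Markers of several other blood cells varied with Vim between libraries of a stage. Over the 38 stage libraries its Pearson r, on log2(CPM + 1) and as a description, was 0.87 with summed mast cell and basophil markers, 0.77 with neutrophil markers, 0.77 with macrophage markers and 0.75 with B cell markers. The 3 lowest ERY-I libraries in neutrophil markers (0.409, 20.1 and 44.4 CPM) held 0.204, 0.15 and 10.99 CPM of Vim. The highest Xist-positive libraries of ERY-I, ERY-II, ERY-III and ERY-V in these markers, replicates 5, 2, 2 and 5, held the most Vim of their stage's Xist-positive libraries. Elsewhere the order often differed. ERY-IV replicate 2 held the most neutrophil markers (185 CPM) with 5.27 CPM of Vim. Replicate 1 held 8.24 CPM of Vim with 17.6 CPM of markers. ERY-VI replicate 4 held 20.2 CPM of Vim with 17.2 CPM of the markers. Replicate 2 there held more markers than replicate 1 (810 against 488 CPM) but less Vim. ERY-V replicate 5 held the most markers but less Vim than replicates 1 to 3. Replicate 6 held more markers than replicate 4 (117 against 9.63 CPM) but less Vim. In ERY-II and ERY-III, replicate 3 held more markers than replicate 1 (27.5 against 4.74 and 32.1 against 17.1 CPM) but less Vim. ERY-II replicate 1 held 34.3 CPM of Vim with 4.74 CPM of neutrophil, 174 CPM of macrophage and 207 CPM of B cell markers. The part of these cells in the Vim values was not tested.

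Vim rose by 7.37 ± 1.74 (adjusted p = 0.00421) in ERY-I against CFU-E, 8.44 ± 0.08 within Y-positive libraries and 3.64 ± 1.88 (0.145) within Xist-positive ones, and without the libraries high in neutrophil markers it did not pass the filter on low counts. In ERY-III against ERY-II it was -1.23 ± 1.39 (0.758), and -1.32 ± 0.34 (0.0143) with the replicate number as a block. ERY-V against ERY-IV gave 4.30 ± 1.16 (0.0306), a call lost in 8 of 11 fits that left out 1 library, and 1.74 ± 1.33 (0.425) without the libraries high in neutrophil markers. Among WT gates after CFU-E, Vim read at most 3.55 CPM in ERY-I-II and 2.87 in ERY-III-VI and 8.65, 2.56 and 12.1 in ERY-V-VI. The last step was a rise of 2.66 ± 0.54 (0.00189) with TMM and 1.51 ± 0.55 (0.0248) with library totals, with neutrophil markers at 608 to 654 CPM in WT ERY-V-VI and 252 to 255 in WT ERY-III-VI.

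**Figure D3:**
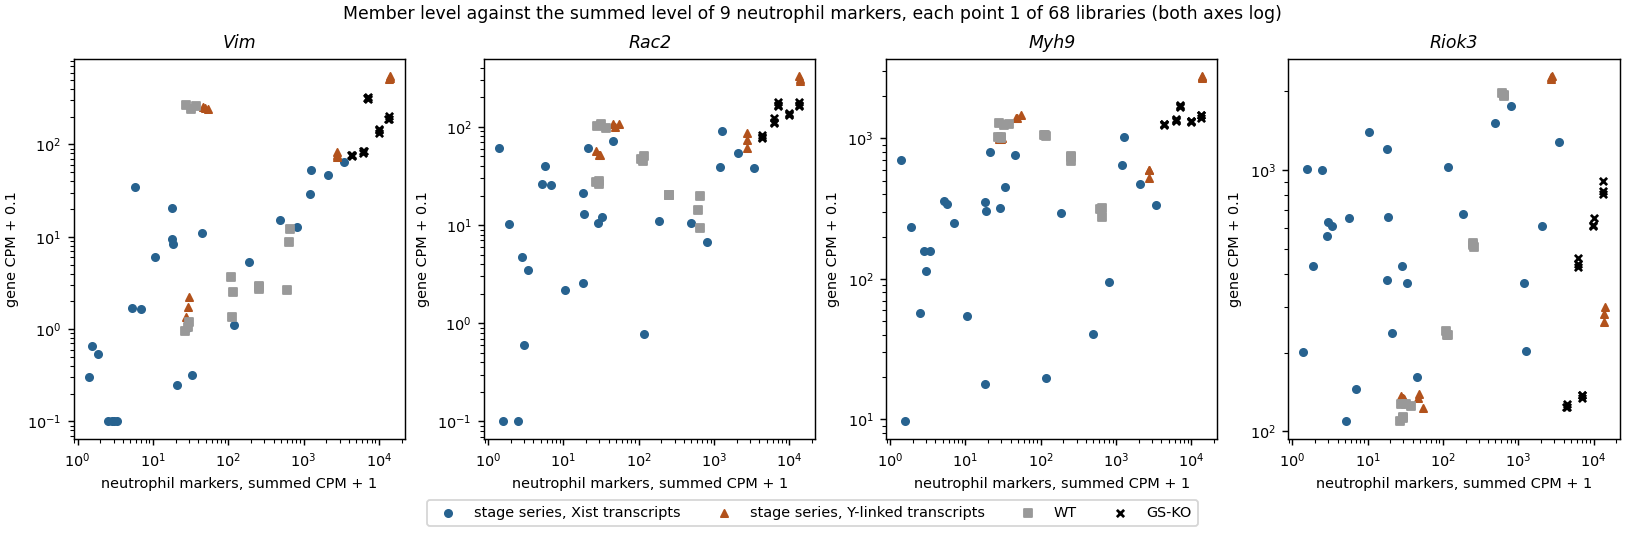
Level of Vim, Rac2, Myh9 and Riok3 (vertical axes, CPM + 0.1, log) against the summed CPM + 1 of 9 neutrophil markers (horizontal axes, log) in the 68 libraries of both series. Vim is 65.1 CPM or more in every library with 2759 CPM or more of these markers, and the WT and stage BFU-E libraries are high in Vim without them.

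In WT libraries members were called 6 of 8 times in CFU-E against BFU-E (70.5% of all genes tested), 7 of 7 tested in ERY-I-II against CFU-E (81.8%, Vim being below the filter), 7 of 8 in ERY-III-VI against ERY-I-II (73.4%) and 4 of 8 in ERY-V-VI against ERY-III-VI (31.2%).

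The difference between GS-KO and WT was largest for Vim in the 4 gates after BFU-E, and for Riok3 it changed direction between gates. Members called were 5 of 8 in BFU-E (24% of all genes tested) and 6 in CFU-E (29.4%). They were 7 of 8 for ERY-I-II (40.4%), for ERY-III-VI (55.9%) and for ERY-V-VI (42.9%). The median log2 change of the 8 was 0.14, 0.14, 0.35, 0.07 and 0.03, beside -0.01, 0.00, -0.01, 0.05 and 0.15 over all genes tested. With library totals the median of all genes was 0.21 in ERY-III-VI and 1.44 in ERY-V-VI, so directions in the last gate are given with both scalings.

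**Figure D4:**
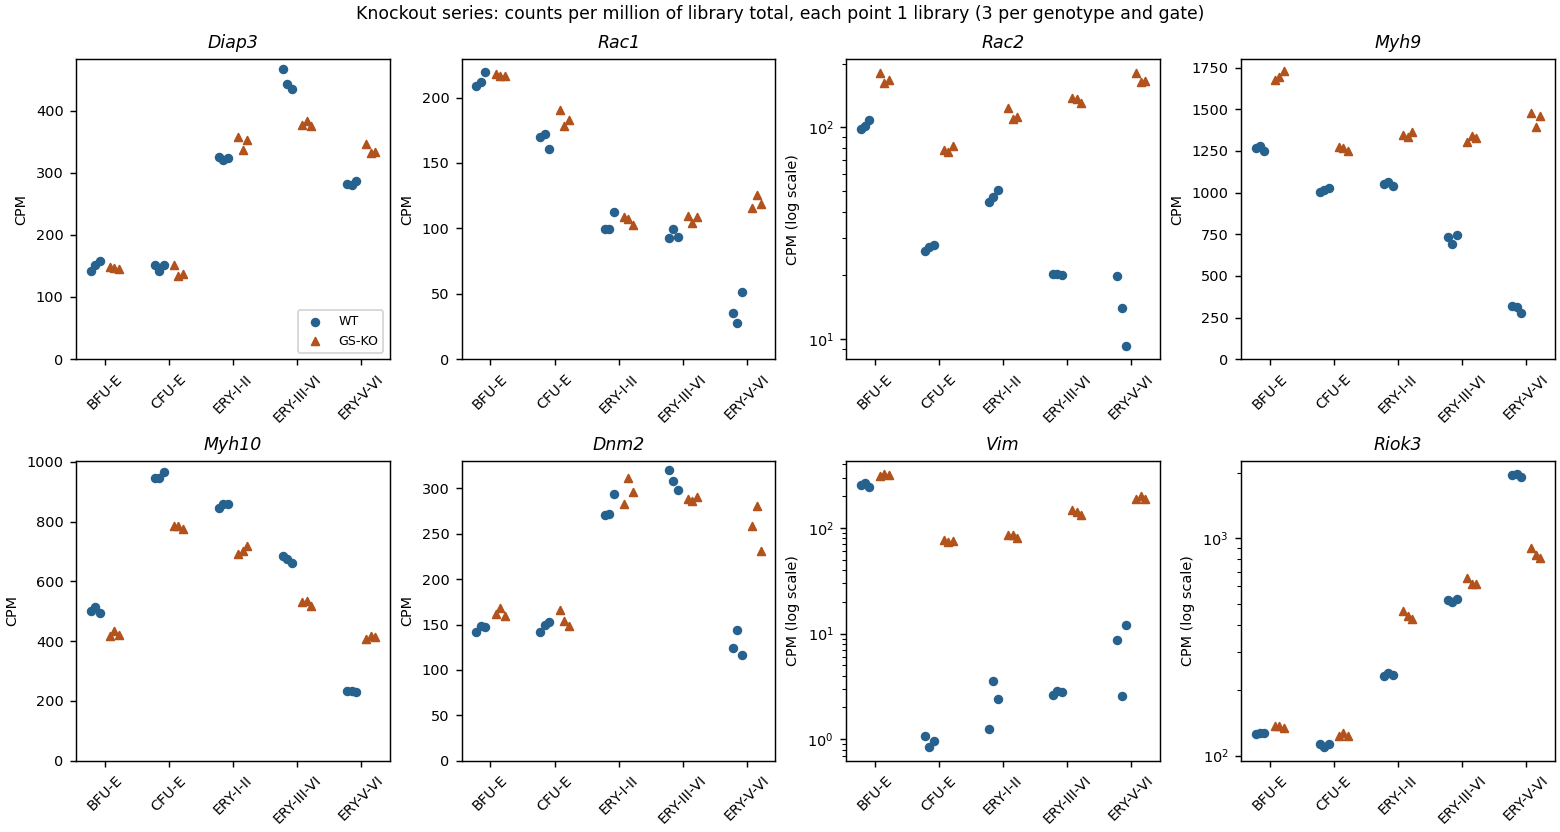
CPM of each member (vertical axes, linear or log as labelled) in the 30 knockout libraries, by gate, with circles for WT and triangles for GS-KO. Vim and Rac2 are higher in GS-KO in each gate, Myh10 is lower in GS-KO in each gate before ERY-V-VI, and Riok3 is higher in GS-KO in ERY-I-II and lower in ERY-V-VI.

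Riok3 was higher in GS-KO erythroblasts and lower in GS-KO reticulocytes than in WT. In ERY-I-II it read 460.1, 437 and 425 CPM in GS-KO against 232, 241 and 234 in WT, a rise of 1.02 ± 0.03 (adjusted p = 9.13e-39). In ERY-III-VI it read 657, 612 and 615 against 517, 506 and 526, or 0.13 ± 0.03 (0.000588), 0.29 ± 0.03 with library totals, and -0.10 ± 0.04 (0.0115) with all groups in 1 fit. In ERY-V-VI it read 905, 833 and 811 against 1942, 1964 and 1917, and fell by 2.49 ± 0.04 (2.86e-17) with TMM and by 1.19 ± 0.04 with library totals. Genotypes did not overlap in these 3 gates. In BFU-E and CFU-E the changes were 0.12 ± 0.05 (0.0714) and 0.15 ± 0.04 (0.00462).

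The sum of 11 erythroid markers, among them the globin genes Hba-a1 and Hbb-b1, moved the same way as Riok3. It was 44555 to 44777 CPM in GS-KO against 27004 to 27110 in WT ERY-I-II, and 93045 to 94112 against 200305 to 203029 in ERY-V-VI. In ERY-III-VI it was 76342 to 77979 against 72061 to 72429. Globin RNA alone was 7.7 to 7.8% of counts in GS-KO and 19.6 to 19.8% in WT ERY-V-VI, so the sum need not describe the other markers. The part of erythroid markers in the Riok3 values was not tested.

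Diap3 was higher in GS-KO in ERY-I-II and lower in ERY-III-VI. It was 357, 336 and 352 CPM in GS-KO against 325, 321 and 324 in WT ERY-I-II, 0.23 ± 0.03 (adjusted p = 4.16e-08; 0.11 ± 0.03 with library totals), and 376, 383 and 375 against 466, 442 and 434 in ERY-III-VI, and fell by 0.41 ± 0.04 (5.31e-15), or by 0.24 ± 0.03 with library totals. In ERY-V-VI it read 346, 332 and 333 against 282, 281 and 287, which is -1.04 ± 0.06 (3.30e-10) with TMM and 0.26 ± 0.06 (0.000990) with library totals. The ERY-V-VI direction therefore rests on the scaling. BFU-E and CFU-E gave -0.03 and -0.09 (0.673 and 0.0992).

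Rac2 was higher in GS-KO in all 5 gates, with no overlap between genotypes, by 0.74 ± 0.05 (adjusted p = 5.14e-18), 1.55 ± 0.07 (1.83e-18), 1.40 ± 0.08 (1.55e-26), 2.58 ± 0.09 (1.50e-32) and 2.27 ± 0.20 (1.19e-07) from BFU-E to ERY-V-VI, the last being 3.57 ± 0.19 with library totals. In ERY-III-VI it read 137, 136 and 131 CPM against 20.2, 20.3 and 20.1. Whereas WT Rac2 fell to 19.9, 14.1 and 9.30 CPM in ERY-V-VI, GS-KO libraries there read 181, 164 and 166. With TMM that last WT step was 0.66 ± 0.28 (0.0918). Rac1 moved little by comparison, from 0.01 to 0.34 over the gates with 1 call, 0.13 ± 0.04 (0.00845) in CFU-E, which was lost without WT replicate 3 or without GS-KO replicate 1. In ERY-III-VI it was 0.01 ± 0.07 (0.882), and -0.22 ± 0.08 (0.0149) with all groups in 1 fit. In ERY-V-VI, however, Rac1 read 116, 125 and 119 CPM in GS-KO against 35.5, 27.5 and 51.6 in WT, which is 0.34 ± 0.18 (0.143) with TMM and 1.64 ± 0.18 (1.11e-06) with library totals. The ratio of Rac2 to Rac1 counts was 1.42 ± 0.131 (SD, n = 3) in GS-KO and 0.417 ± 0.206 (n = 3) in WT ERY-V-VI, and 1.25 ± 0.0516 against 0.212 ± 0.00750 in ERY-III-VI.

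Myh9 was higher in GS-KO in each gate, and Myh10 was lower in the first 4 gates. Myh9 was higher by 0.44 ± 0.02 (adjusted p = 4.61e-23) in BFU-E, 0.31 ± 0.02 (1.43e-12) in CFU-E and 0.48 ± 0.02 (6.73e-32) in the ERY-I-II gate. It was higher by 0.71 ± 0.03 (1.09e-28) in ERY-III-VI and by 0.96 ± 0.06 (5.67e-10) in ERY-V-VI, where library totals gave 2.26 ± 0.05. In CPM, GS-KO libraries stayed between 1247 and 1729 in all 5 gates, while WT fell from 1249 to 1282 in BFU-E to 276 to 318 in ERY-V-VI. With TMM the last WT step, ERY-V-VI against ERY-III-VI, was -0.10 ± 0.06 (0.240), so that part of the fall was not called. Genotypes did not overlap in any gate.

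Myh10 changed by -0.23 ± 0.03 (1.31e-09), -0.29 ± 0.02 (1.77e-11), -0.16 ± 0.02 (4.66e-08) and -0.52 ± 0.03 (2.01e-21) in the first 4 gates, the third being -0.28 ± 0.02 with library totals. It read 787, 786 and 774 CPM in GS-KO against 946, 948 and 967 in WT CFU-E, and 530.4, 534 and 518 against 685, 676 and 663 in ERY-III-VI. ERY-V-VI libraries read 409, 418 and 413 against 233, 233 and 230.2, which is -0.46 ± 0.06 (8.51e-06) with TMM and 0.84 ± 0.06 with library totals. The ratio of Myh9 to Myh10 counts was higher in GS-KO whichever scaling is used, at 4.01 ± 0.110 against 2.52 ± 0.0153 in BFU-E, 1.61 ± 0.00430 against 1.07 ± 0.00550 in CFU-E, and 3.49 ± 0.141 against 1.31 ± 0.0944 in ERY-V-VI (SD, n = 3 each).

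Dnm2 changed by small amounts with TMM. The log2 change was 0.17 ± 0.04 (adjusted p = 0.00258) in BFU-E, 0.06 ± 0.04 (0.320) in CFU-E, 0.22 ± 0.04 (2.33e-06) in the ERY-I-II gate and -0.26 ± 0.04 (5.32e-08) in ERY-III-VI, the last 2 being 0.10 ± 0.04 (0.0270) and -0.10 ± 0.04 (0.0224) with library totals. For ERY-V-VI it was -0.29 ± 0.10 (0.0252) with TMM and 1.01 ± 0.10 with library totals, at 259, 281 and 231 CPM in GS-KO against 124, 144 and 116 in WT. The TMM call was lost in 3 of 6 fits that left out 1 library, namely without WT replicate 2 and without GS-KO replicates 1 and 3.

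Vim was present in every GS-KO gate. It read 311, 323 and 315 CPM in GS-KO against 258, 266 and 244 in WT BFU-E, 0.32 ± 0.03 (adjusted p = 5.18e-11). In CFU-E it read 77.1, 74.0 and 75.9 against 1.08, 0.843 and 0.960, a rise of 6.26 ± 0.14 (1.56e-26), and in ERY-I-II 85.5, 85.5 and 81.2 against 1.25, 3.55 and 2.39, or 5.14 ± 0.15 (3.97e-42). In ERY-III-VI it read 148, 143 and 132 against 2.61, 2.87 and 2.79, or 5.52 ± 0.13 (1.67e-40). In ERY-V-VI it read 187, 201 and 189.7 against 8.65, 2.56 and 12.1, or 3.25 ± 0.26 (3.09e-08) with TMM and 4.55 ± 0.24 with library totals. Vim thus fell from BFU-E to CFU-E in both genotypes, to a level far higher in GS-KO, and was higher again in the later GS-KO gates.

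All 9 neutrophil and all 12 macrophage markers were detected in each GS-KO gate. The neutrophil sum was 7024 to 7102 CPM in GS-KO BFU-E, 4314 to 4388 in CFU-E and 6183 to 6284 in the ERY-I-II gate. It was 9923 to 10002 in ERY-III-VI and 13362 to 13528 in ERY-V-VI, against 608 to 654 in WT ERY-V-VI and at most 255 in the other WT gates. The macrophage sum was 266 to 942 in GS-KO and 4.33 to 79.7 in WT. GS-KO had more of this RNA in each gate. The sum of 7 progenitor markers was 188 to 193 CPM in GS-KO against 74.1 to 81.4 in WT ERY-I-II. It was 222 to 240 against 23.9 to 26.0 in ERY-III-VI and 317 to 337 against 17.8 to 27.1 in ERY-V-VI. It was 1765 to 1792 against 1576 to 1619 in CFU-E, and lower in GS-KO BFU-E, at 3625 to 3777 against 3999 to 4029. Genotype and the amounts of leukocyte and progenitor RNA cannot be told apart in the values of Vim, Rac2, Myh9 or the other members.

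**Figure D5:**
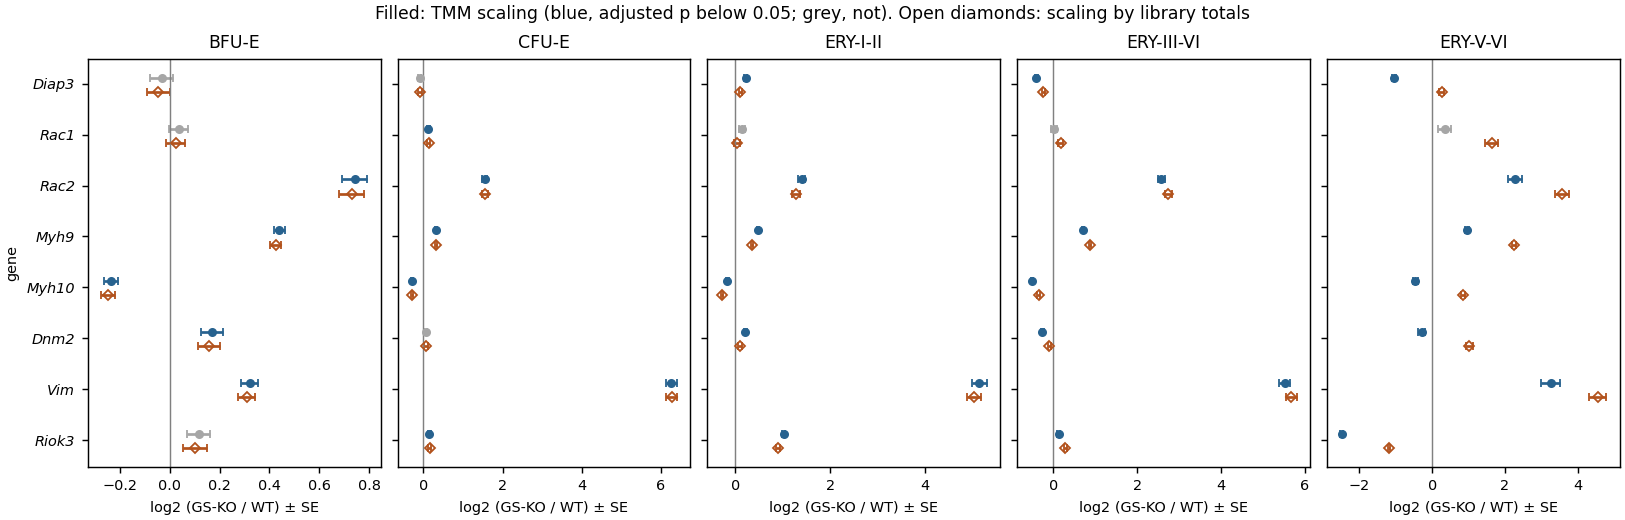
Log2 ratio of GS-KO to WT ± SE for each member in the 5 gates, filled circles with TMM scaling (blue where the adjusted p is below 0.05, grey where not) and open diamonds with library totals. The 2 scalings lie close together through ERY-III-VI and part in ERY-V-VI, where Diap3, Myh10 and Dnm2 are on opposite sides of 0 and Riok3 is below 0 with both.

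The GS-KO to WT difference varied between gates for all 8 members by the test of genotype with gate (61.2% of 12051 genes tested). Adjusted p ran from 1.09e-49 for Riok3 and 1.78e-36 for Vim through 7.13e-25 for Diap3, 1.36e-16 for Rac2, 9.03e-16 for Myh10, 7.77e-15 for Myh9 and 9.33e-12 for Dnm2 to 0.0139 for Rac1. The Rac1 value was 0.149 with RLE size factors and 0.0591 without WT ERY-III-VI replicate 2.

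Another 82 genes of the same machinery, among them formins and actin regulators, myosins, vesicle genes, filament and nuclear envelope genes and other enucleation genes, were followed beside the 8. In ERY-I against CFU-E 40 of the 72 tested rose and 3 fell (2660 and 2190 of all 10460 genes tested). The median of the 72 was 0.76. The largest rise was that of Tmod1, which caps actin filaments at their pointed ends (6.95 ± 0.60, adjusted p = 9.999e-06), and Riok2, a kinase of ribosome assembly, fell (-1.56 ± 0.20, 0.000109). In ERY-II against ERY-I 25 of 74 rose and 10 fell (2091 and 2588 of all 10327 genes tested). The rises were led by the nuclear export receptor gene Xpo7 (4.15 ± 0.50, 0.000107, or 2.68 ± 0.38 with library totals) and the ubiquitin ligase gene Trim58 (3.21 ± 0.32, 4.71e-05).

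None of the 67 tested passed in ERY-III against ERY-II without a replicate block (0.185% of all genes tested), and no count with the block is given here. In ERY-IV against ERY-III 6 of 64 rose and 7 fell (749 and 238 of all 7238 genes tested). Xpo7 and Trim58 again rose most, by 2.66 ± 0.45 (adjusted p = 0.00472) and 1.97 ± 0.27 (0.00221). In ERY-V against ERY-IV 8 of 67 rose and 4 fell (454 and 163 of all 6990 genes tested). In ERY-VI against ERY-V 4 of 65 fell and 4 rose (227 and 167 of all 5030). Among the 4 was Ppp1cb, a phosphatase subunit that acts on myosin, with 1.58 ± 0.31 (0.00564) under TMM and -0.28 ± 0.30 (0.426) with library totals, as for Riok3.

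In GS-KO against WT 36 of 74 rose and 2 fell in BFU-E, and 33 of 73 rose and 9 fell in CFU-E. For ERY-I-II the counts were 44 of 73 and 9, for ERY-III-VI 35 of 74 and 28, and for ERY-V-VI 32 of 74 and 23. Over all genes tested, 1752 rose and 975 fell of 11356 in BFU-E, 1941 and 1250 of 10859 in CFU-E, 2278 and 1739 of 9954 for ERY-I-II, 3132 and 2444 of 9981 for ERY-III-VI and 2110 and 1924 of 9403 for ERY-V-VI. With library totals the last 3 splits were 1792 and 3179, 3957 and 1339, and 7219 and 361, so the direction counts rest on the scaling there. In ERY-V-VI the largest falls with TMM were those of Ppp1cb (-2.52 ± 0.02, adjusted p = 3.47e-20) and Xpo7 (-2.12 ± 0.02, 1.99e-19), which were -1.23 ± 0.02 and -0.83 ± 0.02 with library totals. In ERY-I-II, Fmnl1, a formin gene of leukocytes, rose by 5.44 ± 0.25 (1.86e-30), in the libraries with neutrophil markers.

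Over the 38 stage libraries, the genes most like each member were found by Pearson r on log2(CPM + 1) among 8444 genes with a mean of at least 5 CPM. These libraries share stages and library sets, so r describes a common course and has no p. Riok3 was most like Dcaf12 (0.990), Ppp1cb (0.990) and Ccndbp1 (0.986), and Diap3 most like Hace1 (0.948), Depdc1b (0.938) and Map2k3 (0.936). Rac1 was most like Mcl1 (0.978), Usp34 (0.974) and Ly6e (0.970), and Rac2 most like Map7d1 (0.952), Malt1 (0.940) and Akna (0.939). Myh9 was most like Ssh2 (0.969), Git2 (0.965) and Phf2 (0.962), and Myh10 most like Srrm2 (0.981), Ptpn11 (0.977) and Slk (0.977). Dnm2 was most like Pml (0.984), Ppp6r3 (0.975) and Atad2b (0.969), and Vim most like Atp2a3 (0.946), Rin3 (0.945) and Lcp2 (0.939).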

How the data were processed

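The submitters' processing notes name STAR 2.5.2b, HTSeq and mm10, and the sources used here give neither the annotation nor the strand setting. The deposited values are raw counts of reads per gene symbol, used as deposited. Libraries were made with a stranded total RNA kit, per the labels' protocols. Counts were tested with edgeR 4.0.16 (R 4.3.3, limma 3.58.1): filterByExpr with a minimum count of 10 and a minimum total of 15, TMM scaling, the quasi-likelihood test, and Benjamini-Hochberg adjustment over all genes tested with a threshold of 0.05. Each comparison was fitted on its own groups, without a replicate block, and the SE is the fold change divided by the square root of F. The genotype by gate test used the 30 knockout libraries.

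Same-numbered libraries deviated together in ERY-III against ERY-II (r from 0.60 to 0.78) and ERY-IV against ERY-III (0.34 to 0.63). In each of these steps 3 of 4 same-numbered pairs were each other's best match. The number was taken to pair those libraries, and blocked values stand beside the members' results that they change. In ERY-I against CFU-E r was 0.31 to 0.44, but none of the 5 same-numbered pairs was each other's best match. Same-numbered libraries there were also of the same set, Y-positive or Xist-positive, so no pairing by number was read from that step. No pair of same-group libraries had a chi-square index (1 where counts differ by sampling noise alone) of 1.1 or less, so every library was used as labelled.

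The members and lists were chosen with earlier results of these data known. Named were the 8 members, the 2 largest called changes in each direction per comparison among 82 other genes with a mean of at least 5 CPM, from which the text takes a part and some of which are not reported here, and the 3 genes most like each member. Alternatives were RLE factors, library totals, leaving out globin and the 10 most abundant genes, no filter, a filter of 5 CPM, DESeq2 1.42.0, the replicate block, single library sets, all groups in 1 fit and leaving out each library. Summing each Y-positive triplicate, and leaving out libraries with 1000 CPM or more of neutrophil markers, were added after seeing the data. The fits were also run on simulated counts, with a capped scatter between libraries and without library sets or pairing. Those runs cannot show how the fits perform on the more scattered stage libraries. The floors (3 counts) cover counting error only, whereas the SE also includes scatter between libraries. Gene positions are GENCODE vM21 on GRCm38, and start sites are RefSeq on GRCm38.p6.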

Additional observations from a re-analysis of the deposited data

Results flagged for a closer look

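Diap3 in ERY-II replicate 3 stood at 635 CPM, far from the other 3 libraries of the group, the nearest of which was at 443 CPM. Among 56 groups of member values of 4 to 10 libraries, it was the 1 library whose gap to its nearest neighbour passed Dixon's critical value, at 0.843 of the group's range, and chance passes about 1 group in 20.

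The difference between GS-KO and WT was not the same in the 5 gates for any of the 8 members by the test of genotype with gate, which 61.2% of all genes tested also passed. The adjusted p was 7.13e-25 for Diap3, 0.0139 for Rac1, 1.36e-16 for Rac2, 7.77e-15 for Myh9, 9.03e-16 for Myh10, 9.33e-12 for Dnm2, 1.78e-36 for Vim and 1.09e-49 for Riok3. The gates also differ in how far GS-KO exceeds WT in neutrophil markers, whose part in these values was not tested.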

How the results depend on the processing

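Of 2171 alternative values of the members' fold changes, 2026 kept their direction and side of the threshold, 64 lost the call, 65 gained one and 16 reversed, none of the 16 by leaving out a library. With library totals in place of TMM, the log2 changes reversed to -0.75 for Rac1, -0.95 for Myh10 and -0.31 for Dnm2 in ERY-II against ERY-I, and to -0.65 for Diap3, -0.27 for Riok3, -0.28 for Ppp1cb and -0.34 for Mxi1 in ERY-VI against ERY-V. In WT steps they reversed to -0.16 for Myh10 in ERY-I-II, to -0.12 for Rac1, -0.54 for Myh9 and -0.34 for Myh10 in ERY-III-VI, and to -0.66 for Diap3 in ERY-V-VI. In GS-KO against WT ERY-V-VI they reversed to 0.26 for Diap3, 0.84 for Myh10 and 1.01 for Dnm2. With all groups in 1 fit, Rac1 reversed to -0.22 and Riok3 to -0.10 in GS-KO against WT ERY-III-VI, and within Y-positive libraries Myh10 reversed to -0.41 in ERY-I against CFU-E. Beyond the scaling itself, the cause was not tested.

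Members called moved in CFU-E against BFU-E from 2 to 5 within Y-positive libraries and to 1 with triplicates summed or all groups in 1 fit, and in ERY-II against ERY-I from 4 to 7 with DESeq2. In ERY-V against ERY-IV they moved from 2 to 1 with library totals, Xist-positive libraries, triplicates summed or no library high in neutrophil markers, and ran from 1 to 3 when 1 library was left out. In ERY-VI against ERY-V they moved from 3 to 1 with abundant genes left out, no filter, Xist-positive libraries or triplicates summed, to 0 without libraries high in neutrophil markers, and ran from 1 to 3 when 1 library was left out. In WT ERY-V-VI against ERY-III-VI they moved from 4 to 7 with library totals and 8 with all groups in 1 fit, and ran from 4 to 6 when 1 library was left out. Library totals called 5841 of all 8025 genes tested in that step, against 2507 with TMM. In ERY-V against ERY-IV library totals called 411 of 6990, against 617 with TMM. For the other alternatives no share of all genes is given here, so these moves are not read as results about the members.

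With the replicate number as a block, members called moved from 0 to 2 in ERY-III against ERY-II and from 1 to 2 in ERY-IV against ERY-III, where the numbers pair the libraries. Where they share only a number, the block moved the count from 2 to 5 in CFU-E against BFU-E, from 4 to 8 in ERY-II against ERY-I and from 2 to 4 in ERY-V against ERY-IV. The shares of all genes called with the block are not given here. Over all genes, higher and lower calls were 2091 and 2588 with TMM but 423 and 6998 with library totals in ERY-II against ERY-I, 749 and 238 but 156 and 478 in ERY-IV against ERY-III, 454 and 163 but 53 and 358 in ERY-V against ERY-IV, 167 and 227 but 7 and 2212 in ERY-VI against ERY-V, and 2110 and 1924 but 7219 and 361 in GS-KO against WT ERY-V-VI. Depth limits Vim in ERY-II, ERY-IV and ERY-V, Rac2 in ERY-V and ERY-VI, and Rac1 in ERY-VI, where libraries reach counts of 0.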
